A study of Mus musculus with 28 samples.

Results

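The genes of the mitochondrial respiratory chain were followed in whole kidney and in sorted kidney macrophages of mice with and without lupus nephritis. The members were all genes whose symbol begins with mt-, Nduf followed by a, b, c, s or v, Uqcr, Cox4 to Cox8 or Atp5, together with Sdha, Sdhb, Sdhc and Sdhd. There were 100 of them among the 12315 genes listed for kidney and 96 among the 10523 genes listed for macrophages. In kidney 13 were encoded by mitochondrial DNA, 76 were nuclear subunits and 11 were assembly factors or related proteins with a matching name. In macrophages the numbers were 12, 75 and 9. Of these genes 96 were listed in both tissues, and mt-Co2, Atp5l, Ndufa4l2 and Ndufaf6 were listed in kidney but not in macrophages.

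The respiratory chain passes electrons from NADH and succinate to oxygen and uses the proton gradient built on the way to make ATP. Complex I (NADH dehydrogenase), complex III (cytochrome bc1), complex IV (cytochrome c oxidase) and complex V (ATP synthase) are built from subunits of both genomes, whereas complex II (succinate dehydrogenase) is wholly nuclear. The mitochondrial subunits are transcribed inside the organelle from polycistronic precursors, and the nuclear ones are transcribed one by one, made in the cytosol and imported. Tubule cells of the kidney, above all in the proximal tubule and the thick ascending limb, are rich in mitochondria and depend on oxidative ATP for salt and solute transport.

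The mice were female C57BL/6 littermates of 7 to 9 months in 4 genotypes. These were Fcgr2b-/- Rhbdf2-/- (called double mutant below), Fcgr2b-/-, Rhbdf2-/- and WT, and the labels name no transgene or Cre. Fcgr2b encodes the inhibitory receptor for IgG, whose loss gives a lupus-like disease with nephritis, and Rhbdf2 encodes iRhom2, a partner that ADAM17 needs to mature and reach the plasma membrane, the protease that releases TNF and EGF receptor ligands. Whole kidney gave 16 libraries, 4 per genotype, and macrophages sorted as CD45+ F4/80hi CD11b+ Ly6G- Ly6C- from digested kidneys gave 12 libraries, 3 per genotype, made with a kit for very small RNA inputs. All were made from polyadenylated RNA. The labels do not say whether each library is a separate mouse, so the p-values measure the spread between libraries, which may in part be technical. In kidney each genotype was sequenced on a lane of its own, so that lane and genotype cannot be told apart.

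Reads assigned to listed genes came to 29017955 to 41617801 per kidney library and 30852099 to 34869943 per macrophage library. In CPM, a gene's reads scaled by library size, 3 reads were worth 0.0677 to 0.106 for kidney libraries and 0.0831 to 0.0989 for macrophage libraries, a floor that covers counting error only. The members took 7.5 to 16.8% of listed reads in kidney and 1.52 to 5.05% in macrophages. Reads of both deleted genes were present in every group. Counts per gene do not separate deleted from retained exons, so they check the labels only in part. In sorted cells Fcgr2b had 455 to 550 CPM in double mutants, 256 to 382 in Fcgr2b-/-, 612 to 715 in Rhbdf2-/- and 539 to 715 in WT. Rhbdf2 had 18.1 to 26.6 CPM in double mutants, 25.2 to 43.3 in Fcgr2b-/-, 13.4 to 15.5 in Rhbdf2-/- and 16.2 to 25.0 in WT. Of the markers of the gate, Emr1 (F4/80) had 1605 to 4246 CPM over the 12 sorted libraries, against 8.80 to 131 CPM in the 16 kidney libraries. This gene alone does not show the purity of the sorted cells, whose tubule RNA is described below. The Emr1 ranges come from tables that were normalized separately.

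Some mitochondrial genes have near-identical copies in the nuclear genome, and reads from such stretches match more than 1 place. How the counting treated them is not known from the sources used here. When each transcript was divided into overlapping windows of 50 bases, the share of windows also present in another annotated gene (GENCODE vM21, GRCm38) was 100% for mt-Co2, 99.86% for mt-Co3, 99.53% for mt-Atp6, 98.79% for mt-Nd4l and 97.99% for mt-Nd3. It was 62.23% for mt-Nd4, 51.14% for mt-Co1, 8.19% for mt-Nd2, 7.61% for mt-Nd5 and 0% for mt-Cytb, mt-Nd1, mt-Nd6 and mt-Atp8. Bases 101 to 150 of a transcript of each kind are shown, in lower case throughout, because they show a shared and an unshared stretch. The window of mt-Co3 also lies in the unprocessed pseudogene Gm28437 on chromosome 1 (24613189 to 24613971), and that of mt-Cytb lies in no other annotated gene.
mt-Co3: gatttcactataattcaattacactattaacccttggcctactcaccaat
mt-Cytb: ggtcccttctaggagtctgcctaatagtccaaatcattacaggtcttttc
The 5 genes with nearly all windows shared were also those with the lowest counts, whereas sharing of 51.14% in mt-Co1 went with a level like that of mt-Cytb. Per kilobase of transcript, WT kidney had 24869 CPM of mt-Atp8, 22605 of mt-Cytb and 22106 of mt-Co1, but 100.8 of mt-Nd4l, 33.3 of mt-Atp6, 11.5 of mt-Nd3, 4.30 of mt-Co3 and 3.89 of mt-Co2. The last 5 genes are given as uncertain, and the part of shared reads in their low levels was not tested. The 6 genes with under 50% of windows shared (mt-Nd1, mt-Nd2, mt-Nd5, mt-Nd6, mt-Cytb and mt-Atp8) are used to check the results on mitochondrial transcripts.

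**Figure D1:**
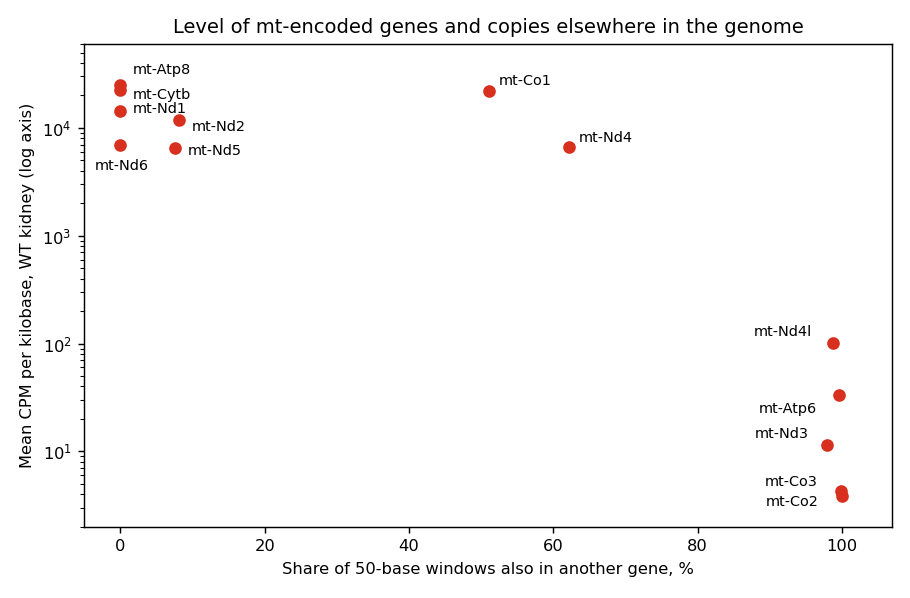
Share of 50-base windows of each mitochondrial transcript that also occur in another annotated gene (horizontal axis, percent) against its mean level in WT kidney (vertical axis, CPM per kilobase, log scale). The 5 genes with at least 97.99% of windows shared lie between 3.89 and 100.8 CPM per kilobase and the other 8 between 6570 and 24869.

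In kidney, mitochondrial transcripts made up 9.73, 9.19, 9.34 and 14.3% of listed reads in the double mutants, 6.74, 9.06, 5.87 and 14.5% in Fcgr2b-/-, 11.4 to 12.0% in Rhbdf2-/- and 10.4 to 11.8% in WT. The spread within the groups lacking Fcgr2b was wide, with 1 library of each above every WT library and the other 3 below. The mean log2(CPM + 1) over nuclear subunits was 7.29, 7.20, 7.39 and 7.59 in the double mutants, 6.86, 7.16, 6.65 and 7.36 in Fcgr2b-/-, 7.51 to 7.58 in Rhbdf2-/- and 7.45 to 7.59 in WT. All 4 Fcgr2b-/- kidneys lay below all WT kidneys on this measure.

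In macrophages the mitochondrial share was 1.24, 1.15 and 0.89% in the double mutants, 0.94, 1.06 and 0.72% in Fcgr2b-/-, 2.94, 2.39 and 1.94% in Rhbdf2-/- and 3.96, 3.07 and 1.23% in WT. All 3 Fcgr2b-/- libraries lay below all WT libraries, while 1 double mutant library lay just above the lowest WT library. The nuclear mean was 5.78, 6.00 and 5.70 in the double mutants, 6.22, 6.19 and 6.25 in Fcgr2b-/-, 6.08, 6.00 and 6.05 in Rhbdf2-/- and 6.26, 6.12 and 5.77 in WT. Here the Fcgr2b-/- libraries overlapped WT, whose spread was widest, and lay above all double mutants and all Rhbdf2-/- libraries.

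The distance between the 2 genomes' transcripts was taken within each library as the mean log2(CPM + 1) of mitochondrial genes less that of nuclear subunits. In kidney it averaged 2.01 in double mutants, 1.97 in Fcgr2b-/-, 2.10 in Rhbdf2-/- and 1.99 in WT, so that the groups lacking Fcgr2b differed from WT by 0.01 (double mutant minus WT) and -0.03 (Fcgr2b-/- minus WT). Single kidneys had 1.95, 1.91, 1.77 and 2.39 in double mutants, and 1.76, 1.92, 1.68 and 2.50 in Fcgr2b-/-. The WT range was 1.89 to 2.04, with replicate 4 of both groups above it and their other kidneys within or below it. In macrophages the distance averaged 1.67 ± 0.11 in double mutants, 1.03 ± 0.26 in Fcgr2b-/-, 2.49 ± 0.19 in Rhbdf2-/- and 2.43 ± 0.44 in WT (SD, n = 3 each). The macrophage difference was -1.40 for Fcgr2b-/- minus WT, 0.64 for double mutant minus Fcgr2b-/- and -0.82 for double mutant minus Rhbdf2-/-. These summaries over the members are descriptions and carry no p-value.

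**Figure D2:**
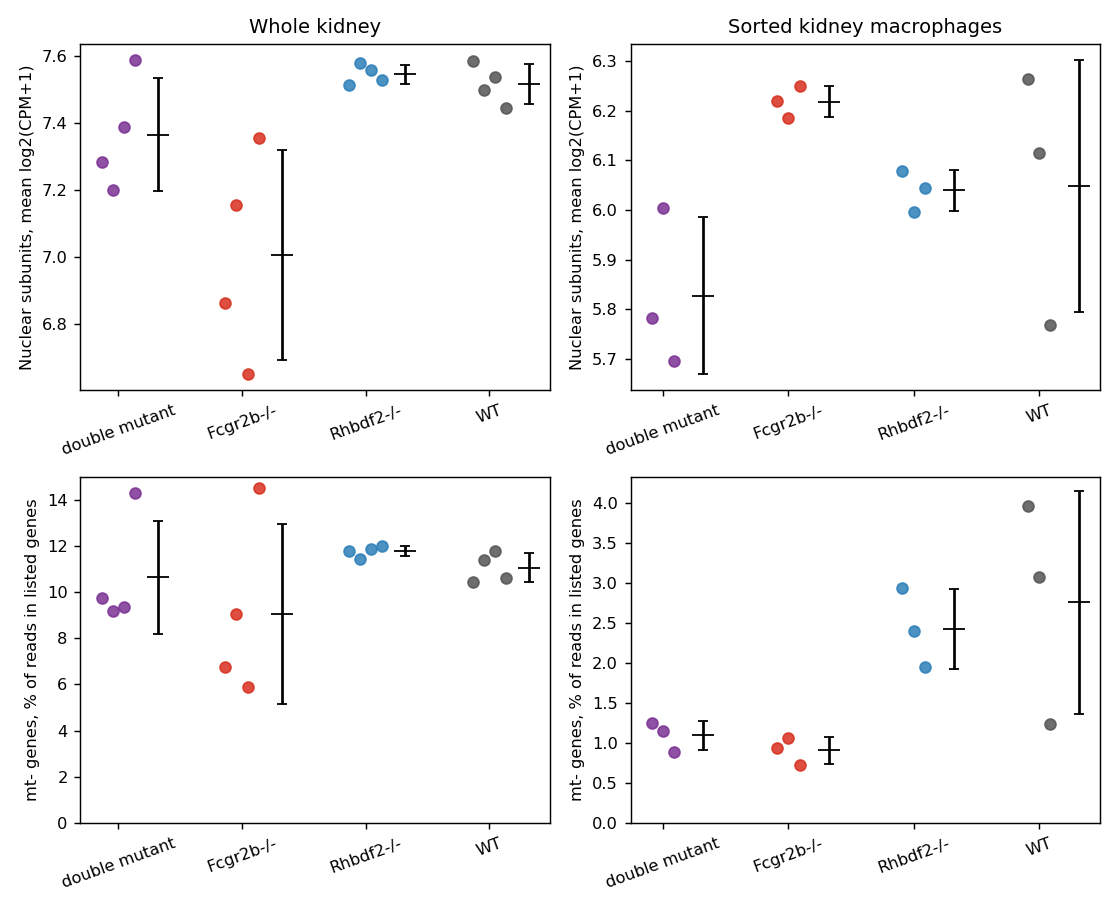
Mitochondrial share of listed reads (percent) and mean log2(CPM + 1) of nuclear subunits in each library of kidney and macrophages, by genotype, with points for libraries, and a line and bars for the group mean and SD. Nuclear means of the 4 Fcgr2b-/- kidneys (6.65 to 7.36) lie below those of WT kidneys (7.45 to 7.59), and the mitochondrial share of Fcgr2b-/- macrophages (0.72 to 1.06%) lies below that of WT macrophages (1.23 to 3.96%).

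In Fcgr2b-/- kidneys the nuclear subunits of all 5 complexes were lower than in WT. Differences were tested with limma on log2(CPM + 1) over every listed gene of the tissue, and a call means an adjusted p (Benjamini-Hochberg) below 0.05. Of the 100 members 73 were called lower, a direction in which 30.8% of all genes were called, and 2 were called higher, against 29.5% of all genes. The members' median log2 difference was -0.49 and that of all genes -0.01. In whole tissue, fewer cells of a type and less RNA per cell cannot be told apart. Of nuclear subunits 75 of 76 had a negative difference. The authors' deposited table had 74 members past the same threshold for this comparison, and all 74 were also called here with the same sign.

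Complex I, the entry point for NADH, had 29 of 36 nuclear subunits called lower with a median log2 difference of -0.47, among them 7 of 7 core subunits and 22 of 29 accessory subunits. Ndufs1 (chromosome 1, 63143595 to 63176833, GRCm38), the largest subunit and a carrier of iron-sulfur clusters, had 108, 139, 103 and 88.5 CPM in Fcgr2b-/- kidneys, against 304, 259, 278 and 266 in WT kidneys. Every Fcgr2b-/- value lay far below every WT value, a log2 difference of -1.34 (SE 0.127, limma adjusted p = 9.63e-07). Ndufab1, which doubles as the mitochondrial acyl carrier protein of fatty acid synthesis, had 23.2, 20.3, 17.4 and 32.7 CPM in Fcgr2b-/- and 48.5, 47.0, 51.1 and 55.1 in WT (log2 difference -1.11, limma adjusted p = 4.17e-05), again without overlap.

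Complex II, which oxidises succinate and belongs to the citric acid cycle as well, had 4 of 4 subunits called lower with a median of -0.75. Sdha (chromosome 13, 74322253 to 74350280), the flavoprotein that binds succinate, had 557, 735, 494 and 578 CPM in Fcgr2b-/- kidneys, against 1385, 1148, 1281 and 1229 in WT kidneys. All Fcgr2b-/- values lay below all WT values, a log2 difference of -1.10 (SE 0.12, limma adjusted p = 3.44e-06). The iron-sulfur subunit Sdhb had 213, 322, 202 and 331 CPM in Fcgr2b-/- and 495, 453.5, 491.5 and 420.2 in WT, a log2 difference of -0.83. The membrane anchors Sdhc and Sdhd differed by -0.66 and -0.58.

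Complex III had 7 of 8 nuclear subunits called lower (median -0.50). Uqcrc2, one of the core proteins, had 341, 452, 299 and 388 CPM in Fcgr2b-/- kidneys and 723, 649, 697.5 and 650.3 in WT kidneys, with no overlap and a log2 difference of -0.89 (limma adjusted p = 1.77e-05). The Rieske iron-sulfur protein Uqcrfs1 differed by -0.84 and the other core protein Uqcrc1 by -0.80.

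Complex IV, where oxygen is reduced, had 10 of 13 nuclear subunits called lower and 1 called higher (median -0.42). Cox5a had 159, 195, 152 and 217 CPM in Fcgr2b-/- kidneys and 276, 288, 294.5 and 278 in WT kidneys (log2 difference -0.67, limma adjusted p = 5.87e-05), without overlap. Cox7a1, known as the muscle isoform of its subunit, was low in all kidneys, with 10.0, 11.0, 6.34 and 12.1 CPM in Fcgr2b-/- and 21.9, 20.4, 19.0 and 16.6 in WT (log2 difference -0.94, limma adjusted p = 0.000182). Cox6b2, known as the testis isoform, was the subunit called higher (log2 difference 0.68, limma adjusted p = 0.0236). It had 10.1, 21.2, 10.4 and 24.1 CPM in Fcgr2b-/- and 9.70, 8.20, 10.3 and 8.77 in WT, so that 2 Fcgr2b-/- kidneys lay at more than 20 CPM and the other 2 near the top of the WT range. The ubiquitous isoform Cox4i1 differed by -0.42 (limma adjusted p = 0.0182), and Cox6a1 by -0.24 without passing the threshold (limma adjusted p = 0.103).

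Complex V had 13 of 15 nuclear subunits called lower (median -0.53). Atp5b, the catalytic beta subunit, had 2153, 2734, 1950 and 2183 CPM in Fcgr2b-/- kidneys and 4573, 4130, 4342 and 4031 in WT kidneys, with no overlap (log2 difference -0.93, limma adjusted p = 2.63e-05). Atp5f1 of the peripheral stalk differed by -0.77 and the alpha subunit Atp5a1 by -0.76. Atp5e, the small epsilon subunit, differed by -0.50 (limma adjusted p = 0.00999), with 1 Fcgr2b-/- kidney at 232.5 CPM within the WT range.

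Of the assembly factors, 6 of 7 Ndufaf genes were called lower, Ndufaf6 among them (log2 difference -0.65, limma adjusted p = 0.000449). Cox7a2l, which helps join complexes into supercomplexes, differed by 0.10 (limma adjusted p = 0.288). Ndufa4l2, a hypoxia-inducible paralog of Ndufa4, was called higher in Fcgr2b-/- kidneys by 0.48 (limma adjusted p = 0.024), with 7.53, 5.31, 5.76 and 4.10 CPM in Fcgr2b-/- and 3.75, 3.92, 4.18 and 3.07 in WT. The lowest Fcgr2b-/- kidney lay within the WT range.

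The 13 mitochondrial transcripts moved by a similar median (-0.53) with far more spread, and 3 of them were called lower in Fcgr2b-/- kidneys. These were mt-Nd2 (-0.95, limma adjusted p = 0.0129), a membrane-arm subunit of complex I, and the uncertain mt-Nd4l and mt-Co3. Transcripts of mt-Nd2 had 5371, 6599, 3689 and 12547 CPM in Fcgr2b-/- kidneys and 11763, 12766, 13107 and 11601 in WT kidneys. Those of mt-Cytb, the only mitochondrial subunit of complex III, had 12573, 19202, 9352 and 30722 CPM in Fcgr2b-/- and 24154, 26561, 27631 and 25093 in WT (log2 difference -0.67, limma adjusted p = 0.1). In both genes 3 Fcgr2b-/- kidneys lay below every WT kidney and Fcgr2b-/- replicate 4 within or above the WT range.

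This library had the highest level of its group for 13 of 13 mitochondrial genes and 64 of 76 nuclear subunits, yet the lowest for Ndufs1. Without it 93 members were called, 92 of them lower, with 12 of 13 mitochondrial genes lower. Double mutant replicate 4 led its own group in 13 mitochondrial genes and in 64 nuclear subunits, here with Ndufs1 among them. With double mutant replicate 4 also left out, 94 members were called lower. Among them were 13 of 13 mitochondrial genes with a median of -0.83, while the nuclear median was -0.62. Both settings were chosen with the libraries' values known. Another scaling also moved the count. With all nuclear genes summed to the same total, the median of all genes shifted by 0.18 on the log2 scale and 52 members were called lower and 3 higher.

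**Figure D3:**
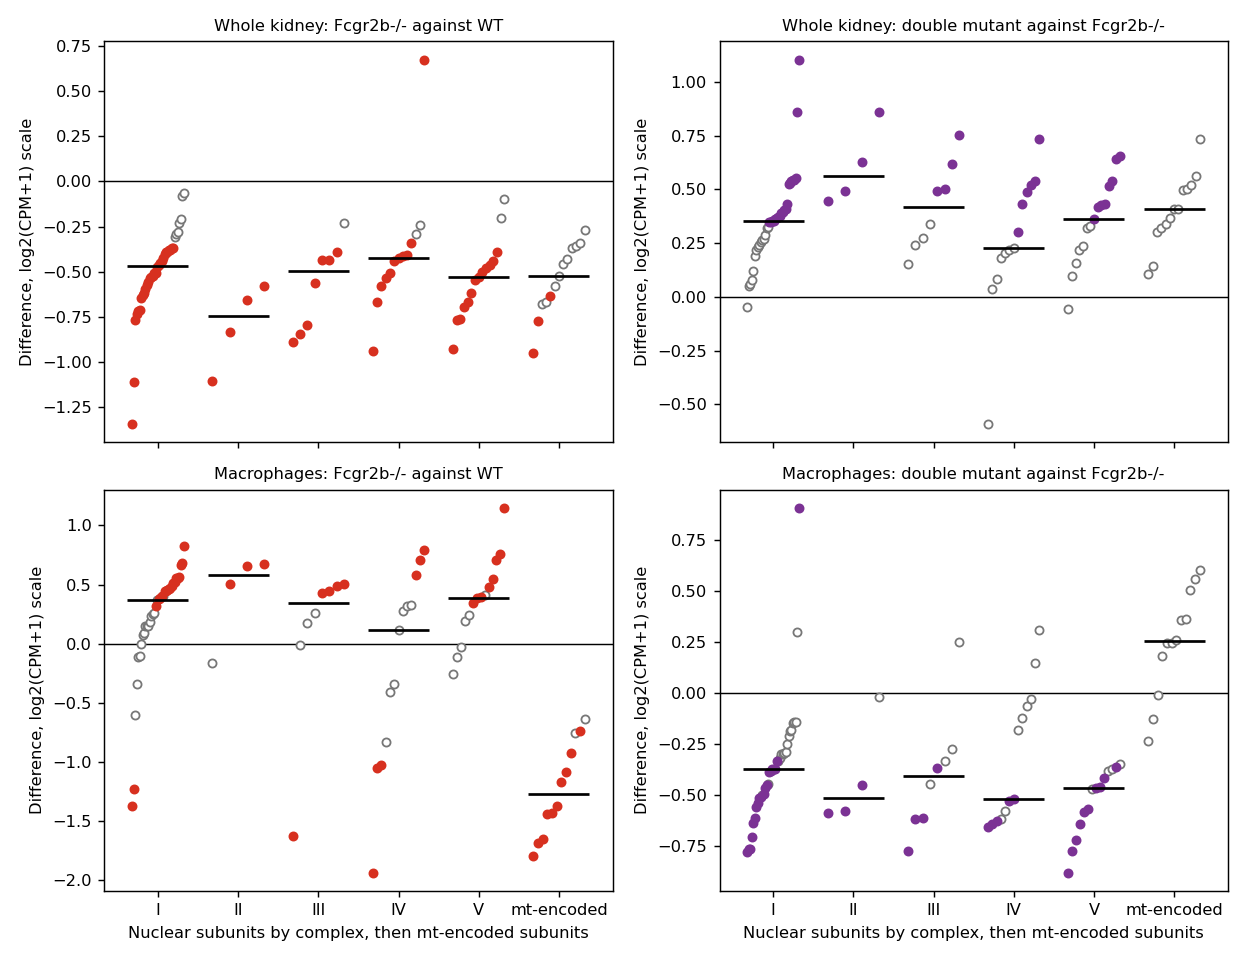
Log2 difference of each member by complex and genome, for Fcgr2b-/- minus WT (red) and double mutant minus Fcgr2b-/- (purple) in kidney and macrophages, with filled points called at adjusted p below 0.05, open points not called and lines at medians. In kidney the medians of nuclear subunits in complexes I to V lie between -0.42 and -0.75 for Fcgr2b-/- minus WT, and in macrophages the mitochondrial median is -1.28.

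In kidneys of double mutants the nuclear subunits were higher than in Fcgr2b-/- kidneys. Of 100 members 50 were called higher, against 22.5% of all genes, and 1 lower, against 22.8%, with a members' median of 0.36. The called subunits were 21 in complex I, 4 in complex II, 4 in complex III, 6 in complex IV and 8 in complex V, with 7 factors besides. Ndufs1 had 221, 215, 208 and 301 CPM in double mutants, against 108, 139, 103 and 88.5 in Fcgr2b-/- (log2 difference 1.10, limma adjusted p = 1.44e-05). Sdha had 963, 982, 1024 and 1303 CPM in double mutants, against 557, 735, 494 and 578 in Fcgr2b-/- (log2 difference 0.86, limma adjusted p = 6.84e-05). Neither pair of groups overlapped.

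Uqcrc2 was 0.75 higher, Cox7a1 0.73 higher, Atp5f1 0.65 higher and Cox5a 0.30 higher on the log2 scale in double mutants than in Fcgr2b-/- kidneys. Ndufa4l2 was the member called lower, with 3.36, 4.61, 4.13 and 2.36 CPM in double mutants and 7.53, 5.31, 5.76 and 4.10 in Fcgr2b-/- (log2 difference -0.53, limma adjusted p = 0.0186), 2 of the double mutants lying above the lowest Fcgr2b-/- kidney. None of the 13 mitochondrial genes passed the limma threshold, although all 13 differences were positive with a median of 0.41 and 2 had an unadjusted p below 0.05. The smallest adjusted p was that of mt-Nd2 (0.74, limma adjusted p = 0.0567). With limma-voom 1 of the 13 was called higher, and the authors' deposited table had none of them past the threshold. Without Fcgr2b-/- replicate 4 the count rose to 86 members with 9 mitochondrial genes higher. It was 29 without double mutant replicate 4, 33 without Fcgr2b-/- replicate 1 and 32 without Fcgr2b-/- replicate 3.

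Rhbdf2-/- kidneys could not be told from WT kidneys in these genes. By limma 0 of 100 members were called, as were 0% of all genes, and 272 of the 12315 genes, 1 of them a member, had an unadjusted p below 0.05. The authors' deposited table called 0 members, as did limma-voom. Ndufs1 had 262, 273, 263 and 262 CPM in Rhbdf2-/-, against 304, 259, 278 and 266 in WT. Sdha had 1264, 1287, 1211 and 1239 CPM in Rhbdf2-/-, against 1385, 1148, 1281 and 1229 in WT. The groups overlapped in both genes.

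Against the groups that keep Fcgr2b, most members had slightly lower values in the double mutants. Against Rhbdf2-/- the limma test called 0 members, where 3.5% of all genes were called. The members' median was -0.19 with 95 of 100 differences negative, and the median of all genes was -0.03. There 12 members had an unadjusted p below 0.05, and limma-voom called 0. Setting nuclear totals equal shifts the differences of this comparison by 0.09 on the log2 scale, and setting the totals of all listed genes equal by 0.10. The members come from the same libraries, so their signs are not independent. Against WT 1 member was called lower, where 2.77% of all genes were called lower, and none higher, where 4.52% were. This was Cox5a, with 232.5, 197, 215 and 239 CPM in double mutants and 276, 288, 294.5 and 278 in WT (log2 difference -0.36, limma adjusted p = 0.0411), and the groups did not overlap. Without replicate 4 of both groups lacking Fcgr2b, 24 members were called lower against Rhbdf2-/- and 18 against WT.

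Whether the effect of Fcgr2b loss depended on Rhbdf2 was tested as an interaction, the difference of double mutant minus Rhbdf2-/- less that of Fcgr2b-/- minus WT. It was positive and called for 16 of 100 kidney members, against 13.9% of all genes, and negative for 0, against 13.9%, with 1 member negative at an unadjusted p below 0.05. The members' share was near the background in the positive direction. The largest were those of Ndufs1 (1.16, limma adjusted p = 0.000451) and Ndufab1 (0.91) of complex I, Sdha (0.87), Cox7a1 (0.78) and Uqcrc2 (0.72). Called were 3 of 4 subunits in complex II and 3 of 8 in complex III, both small sets, with lower shares in complexes I, IV and V. Among mitochondrial genes 0 of 13 were called, 0 had an unadjusted p below 0.05 and limma-voom called 0. Without Fcgr2b-/- replicate 4 the count of called members was 53.

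Some lists of tubule and leukocyte markers also differed between the groups. Between Fcgr2b-/- and WT kidneys 30.8% of all genes were called lower and 29.5% higher. Of 16 proximal tubule markers 16 were called lower in Fcgr2b-/- kidneys than in WT (median log2 difference -1.35), and their summed level was 12100, 20423, 9766 and 18644 CPM in Fcgr2b-/-, against 39820 to 45559 in WT. It was 28702 to 34818 CPM in double mutants and 39032 to 48781 in Rhbdf2-/-. Of 9 thick limb and distal markers 7 were lower and 1 higher. Of 8 collecting duct markers 1 was lower and 2 higher, and of 7 lymphocyte markers 0 were called. Of 15 macrophage markers 15 were higher (median 2.67), with a sum of 2892, 1083, 2644 and 1392 CPM in Fcgr2b-/-, against 253 to 308 in WT. In double mutants the sum was 427 to 1812 CPM. There 4 of the 15 markers were called lower than in Fcgr2b-/- kidneys, against 22.8% of all genes. Compared with Rhbdf2-/- kidneys 11 were higher, where 3.5% of all genes were called. The 2 Fcgr2b-/- kidneys with the lowest nuclear mean had the lowest proximal sums and the highest macrophage sums. They also had the highest thick limb and distal sums of their group, 8396 and 7409 CPM, against 6411 and 6330. Among double mutants, replicate 3 had the lowest proximal sum (28702 CPM) and the highest macrophage sum (1812 CPM). Its nuclear mean of 7.39 nevertheless lay above those of replicates 1 and 2 (7.29 and 7.20). The part of cell composition in the differences of respiratory chain genes was not tested.

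Other mitochondrial pathways, taken as lists outside the members, were lower in Fcgr2b-/- kidneys too. Their counts are read against the 30.8% of all genes called lower and the 29.5% called higher. Of the citric acid cycle genes 18 of 18 were called lower (median -0.77), with Sucla2 of succinyl-CoA ligase at -1.16 and Pdha1 of pyruvate dehydrogenase at -1.07. Of electron carriers and quinone synthesis 17 of 19 were lower (median -0.62), with Coq9 at -1.04 and cytochrome c (Cycs) at -0.75. Of respiratory chain assembly factors 27 of 42 were lower, with Acad9 at -1.23, and of genes for mitochondrial DNA upkeep and expression 16 of 22, with the transcription factor Tfam at -0.45. Of 21 genes for import, shape and other marks of mitochondrial mass 14 were lower, with the fusion proteins Opa1 at -0.78 and Mfn2 at -0.76. Of regulators of mitochondrial biogenesis 9 of 13 were lower and 2 higher, the coactivator Ppargc1a at -0.74 and the nuclear receptor Esrra at -0.71 among the lower ones, while Nrf1 was 0.18 higher (limma adjusted p = 0.033). Of 17 glycolysis genes 6 were higher and 4 lower, shares near those of all genes, with the lactate exporter Slc16a3 at 1.92 and Pfkm at -0.94.

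Compared with Fcgr2b-/- kidneys, double mutant kidneys had 17 of 18 citric acid cycle genes called higher (median 0.58), 14 of 19 of the carrier list, 19 of 42 assembly factors and 13 of 22 genes of mitochondrial DNA upkeep and expression, with none lower in any of these lists. Of biogenesis regulators 8 were higher, including Ppargc1a by 0.70 and Esrra by 0.49, and 1 was lower. Among all genes 22.5% were called higher and 22.8% lower. Of 17 glycolysis genes 3 were higher and 5 lower, shares near that background.

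In sorted macrophages of Fcgr2b-/- kidneys the members moved in both directions and split by genome. Of 96 members 38 were called higher than in WT, against 24.2% of all genes, and 16 lower, against 28.5%. The 38 were 36 nuclear subunits and 2 factors, and the 16 were 10 mitochondrial genes and 6 nuclear subunits. The members' median log2 difference was 0.24 and that of all genes -0.09. The split depended on the scaling, with 19 higher and 17 lower when the nuclear totals were set equal, 22 and 16 when the totals of all listed genes were set equal, and 41 and 16 with median-of-ratios scaling. The authors' deposited table had 55 members past the same threshold, of which 51 were called here with the same sign.

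Of nuclear subunits, 18 were called higher in complex I, 3 of 4 in complex II, 4 in complex III, 3 in complex IV and 8 of 14 in complex V. In complex I these were 1 core subunit and 17 accessory subunits. Atp5e had 188, 174 and 217 CPM in Fcgr2b-/- macrophages, against 116, 119 and 104.5 in WT macrophages, without overlap (log2 difference 0.76, limma adjusted p = 0.000269). Sdhd had 274, 277 and 334.3 CPM in Fcgr2b-/- and 201, 195 and 163 in WT (log2 difference 0.66, limma adjusted p = 0.00156), and Cox4i1 had 200.4, 227 and 259.6 CPM in Fcgr2b-/- and 149.8, 142 and 126 in WT (log2 difference 0.71, limma adjusted p = 0.00126). In these 3 genes every Fcgr2b-/- library was above every WT library.

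Ndufs6, an accessory subunit beside the iron-sulfur clusters of complex I, had 60.8, 56.5 and 65.6 CPM in Fcgr2b-/- macrophages and 40.7, 34.1 and 28.1 in WT (log2 difference 0.83, limma adjusted p = 0.000886). Cox7a2l had 205, 232 and 320.2 CPM in Fcgr2b-/- and 142, 132 and 132 in WT (log2 difference 0.87, limma adjusted p = 0.000487). Sdhc was 0.67 higher and Sdhb 0.51 higher, whereas Sdha differed by -0.16 (limma adjusted p = 0.264). Atp5g2, one of 3 genes for the c subunit of the rotor, was 1.15 higher at low levels of 8.22, 7.64 and 9.33 CPM in Fcgr2b-/-, against 4.41, 3.13 and 2.39 in WT, and 38.35% of its windows are shared with other genes.

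The mitochondrial transcripts were lower in Fcgr2b-/- macrophages. Of 12, 10 were called lower (median -1.28), including all 6 with under 50% of windows shared, whose median was -1.44. Transcripts of mt-Cytb had 2947, 2927 and 2030 CPM in Fcgr2b-/-, against 12819, 9905 and 4660 in WT (log2 difference -1.69, limma adjusted p = 0.000995). Those of mt-Nd2 had 449, 417 and 263 CPM in Fcgr2b-/- and 2052, 1508 and 669.5 in WT (log2 difference -1.80, limma adjusted p = 0.00109). Groups did not overlap in either gene, and WT replicate 3 lay well below the other WT libraries in both. For mt-Co1, the catalytic core of complex IV, values were 2459, 3154 and 2571 CPM in Fcgr2b-/- and 8007, 6239 and 2748 in WT (log2 difference -0.93, limma adjusted p = 0.0362), and here the groups overlapped.

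WT replicate 1 had the highest level of its group for 12 of 12 mitochondrial genes and 69 of 75 nuclear subunits, and WT replicate 3 the lowest for 12 and 66. Without WT replicate 3 the called members were 28 higher and 26 lower, with 12 of 12 mitochondrial genes lower. Without the 3 libraries with the highest mitochondrial share (WT replicates 1 and 2 and Rhbdf2-/- replicate 1), a setting chosen after seeing the values that leaves 1 WT library assumed to vary like the others, 31 members were higher and 2 lower. Then 1 mitochondrial gene was called and their median was -0.59. The call for mt-Cytb held under all 21 alternatives, between -2.12 and -0.84, and that for mt-Co1 was lost under 6.

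A group of 6 nuclear subunits was also called lower in Fcgr2b-/- macrophages, among them Cox6a1, Uqcrc1, Ndufab1, Cox7c and Cox8a. Cox6a1, the ubiquitous isoform of a complex IV subunit, had 36.3, 32.9 and 21.5 CPM in Fcgr2b-/-, against 159.6, 145 and 67.3 in WT (log2 difference -1.94, limma adjusted p = 0.00127). Uqcrc1 had 143, 148 and 80.2 CPM in Fcgr2b-/- and 417, 424 and 291 in WT (log2 difference -1.63, limma adjusted p = 0.00271). The groups did not overlap in either gene. Ndufab1 and Cox7c were low, at 1.81 to 2.88 and 2.11 to 2.23 CPM in Fcgr2b-/-, against 6.20 to 7.80 and 4.88 to 6.96 in WT.

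RNA of tubule cells was present in the sorted libraries and moved with genotype. Thick limb and distal markers summed to 583, 2809 and 528 CPM in double mutants, 1093, 572 and 405 in Fcgr2b-/-, 3682, 3835 and 3453 in Rhbdf2-/- and 8744, 6562 and 2002 in WT, and 9 of 9 were called lower in Fcgr2b-/- than in WT (median log2 difference -3.78). Proximal markers summed to 1193, 1532 and 1250 CPM in double mutants, 2398, 1204 and 1220 in Fcgr2b-/-, 3443, 2486 and 4310 in Rhbdf2-/- and 3484, 1965 and 1563 in WT, with 9 of 16 lower and 1 higher in Fcgr2b-/-. Of collecting duct markers 4 of 4 were lower, of lymphocyte markers 4 of 10 were lower, and no podocyte marker of 5 was listed. The WT library with the lowest mitochondrial share had the lowest thick limb sum of its group. Macrophage markers summed to 50924 to 66150 CPM in Fcgr2b-/- and 28161 to 38324 in WT. Of these 15 markers 7 were called higher and 1 lower (median log2 difference 0.39). Among all genes 24.2% were called higher and 28.5% lower in this comparison. Emr1 had 1605 to 2487 CPM in Fcgr2b-/- and 2323 to 3283 in WT, and Csf1r 2821 to 3423 and 3161 to 3466. The part of tubule RNA in the lower mitochondrial transcripts was not tested.

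**Figure D4:**
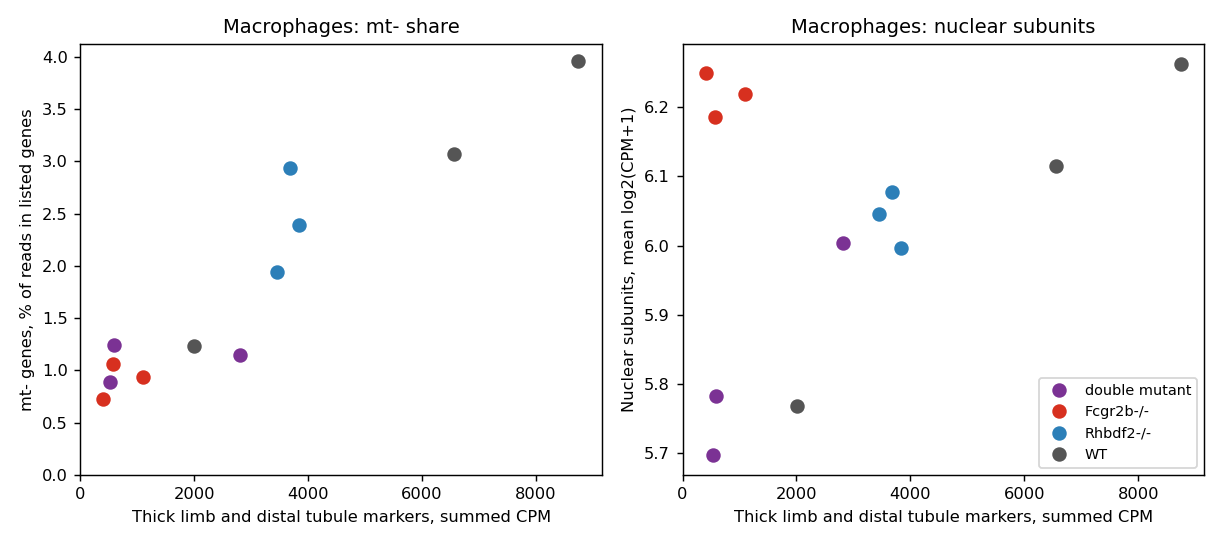
Mitochondrial share of listed reads (percent) and mean log2(CPM + 1) of nuclear subunits against the summed level of thick limb and distal tubule markers (CPM) in each of the 12 macrophage libraries, coloured by genotype. The WT libraries with 8744 and 6562 CPM of these markers have mitochondrial shares of 3.96 and 3.07%, the 3 Fcgr2b-/- libraries, with 405 to 1093 CPM, have 0.72 to 1.06%, and a double mutant library with 2809 CPM has 1.15%, against 1.23% in the WT library with 2002 CPM.

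For nuclear subunits, the excess of the kidney level was set beside the macrophage differences. The kidney level less the macrophage level in Rhbdf2-/- libraries had a median of 2.29 (0.69 to 3.75) on the log2 scale for these 6, of 1.07 (0.03 to 5.47) for the 36 called higher and of 1.57 (0.38 to 4.33) for the 33 not called, so that the ranges overlapped. Cox5a, called higher, had the largest excess, and Uqcrc1, called lower, had 0.69, whereas Cox8a, called lower, had 3.75 and Ndufc2, called higher, 0.03. Over all 75 nuclear subunits Pearson's r between this excess and the Fcgr2b-/- minus WT difference was -0.26 and Spearman's rho -0.26. This is a description over genes measured in the same libraries, and the levels come from tables that were normalized separately. The part of tubule RNA in these differences was not tested.

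Macrophages of double mutants had lower nuclear subunits than those of Fcgr2b-/-. Of 96 members 42 were called lower, against 13.8% of all genes, and 1 higher, against 15.8%, with a members' median of -0.37. The 42 were 19 subunits of complex I, 3 of complex II, 4 of complex III, 5 of complex IV, 10 of complex V and the factor Ndufaf2. Atp5e had 113, 131 and 105 CPM in double mutants, against 188, 174 and 217 in Fcgr2b-/- (log2 difference -0.72, limma adjusted p = 0.00115). Ndufs6 had 39.9, 37.0 and 30.0 CPM in double mutants and 60.8, 56.5 and 65.6 in Fcgr2b-/- (log2 difference -0.76, limma adjusted p = 0.00348). In both genes the double mutants lay below all Fcgr2b-/- libraries and overlapped WT.

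Atp5g3, another gene for the c subunit, was 0.88 lower, Uqcrq of complex III 0.78 lower, Cox4i1 0.66 lower and Sdhd 0.58 lower in double mutants than in Fcgr2b-/- macrophages. Ndufab1 was the member called higher (0.91, limma adjusted p = 0.0105), at 4.43, 6.83 and 4.64 CPM in double mutants and 2.88, 2.33 and 1.81 in Fcgr2b-/-. By limma 0 of 12 mitochondrial genes were called (median 0.25), and 0 had an unadjusted p below 0.05. With limma-voom and in the authors' deposited table the number was 0 as well. For mt-Cytb the values were 3978, 4223 and 3320 CPM in double mutants and 2947, 2927 and 2030 in Fcgr2b-/- (log2 difference 0.56, limma adjusted p = 0.214), and the groups did not overlap. Without double mutant replicate 3 the count of called members was 19, and 22 without Fcgr2b-/- replicate 3.

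Rhbdf2-/- macrophages could not be told from WT in these genes, with 0 of 96 members called by limma, where 0.019% of all genes were called, and 339 genes, 1 of them a member, were at an unadjusted p below 0.05. The limma-voom test and the authors' deposited table called 0 members too. The WT libraries were widely spread in mitochondrial genes, with mt-Cytb at 4660 to 12819 CPM, against 7038 to 9681 in Rhbdf2-/-. A difference in these genes could therefore have been missed. Against Rhbdf2-/- macrophages, the double mutants had 16 members called lower, where 9.03% of all genes were, and 1 higher, where 9.2% were. The lower ones were 10 mitochondrial genes and 6 nuclear subunits, including Cox6a1 (-2.13), Cox8a (-1.55), Uqcrc1 (-1.38), Atp5b (-0.92) and Cox5b (-0.87), and the higher one was Ndufc2 (0.34, limma adjusted p = 0.0333). Transcripts of mt-Cytb had 3978, 4223 and 3320 CPM in double mutants, against 9681, 8079 and 7038 in Rhbdf2-/- (log2 difference -1.10, limma adjusted p = 0.0358), without overlap. The 17 calls of this comparison depended on single libraries. They numbered 4, 11 and 6 without double mutant replicates 1, 2 and 3, and 3, 4 and 5 without Rhbdf2-/- replicates 1, 2 and 3, when at most 2 mitochondrial genes were called except without double mutant replicate 2 (6 genes). Without WT replicate 3 they numbered 26.

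Against WT macrophages, the double mutants had 14 members called lower, where 8.58% of all genes were, and 2 higher, where 9.88% were. Of the 14, 8 were mitochondrial genes, 5 were nuclear subunits, including Cox6a1 (-1.79), Uqcrc1 (-1.38), Cox8a (-1.21) and Cox7c (-0.75), and 1 was the assembly factor Ndufaf7 (-0.50). The higher ones were Ndufc2 (0.48) and Cox7a2l (0.55). Without WT replicate 3 the called members numbered 38, and without the 3 libraries with the highest mitochondrial share 0. The interaction was called negative for 5 of 96 members, against 5.89% of all genes, and positive for 0, against 6.03%, with 1 positive at an unadjusted p below 0.05. The 5 were Ndufs6 (-0.87), Atp5e (-0.68), Cox4i1 (-0.68), Sdhd (-0.65) and Ndufa2 (-0.49), a share near the background.

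Other energy pathways in Fcgr2b-/- macrophages are read against the 24.2% of all genes called higher and the 28.5% called lower. Of 17 glycolysis genes 11 were called higher than in WT and 1 lower (median log2 difference 0.66), with pyruvate kinase Pkm at 1.60, lactate dehydrogenase Ldha at 1.35 and enolase Eno1 at 0.98. Of genes for mitochondrial import, shape and other marks of mitochondrial mass 10 were higher and 2 lower, with Tomm22 at 1.12 and Vdac3 at 0.77. Of the citric acid cycle list 2 were higher and 3 lower, with citrate synthase Cs at 0.63 and Sucla2 at -1.04. Of 39 assembly factors 16 were higher and 7 lower, and of 18 genes of electron carriers and quinone synthesis 3 were higher and 5 lower. For the citric acid cycle and carrier lists these shares do not exceed those of all genes in either direction. Of 21 genes for mitochondrial DNA upkeep and expression 7 were lower and 2 higher, including the DNA polymerase Polg at -0.99 and the RNA polymerase Polrmt at -0.97, whereas Tfam differed by -0.34 (limma adjusted p = 0.0688). Of 13 biogenesis regulators 6 were lower, with Esrra at -1.43 and Nrf1 at -0.64, and none higher.

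In double mutant macrophages, compared with Fcgr2b-/-, 10 glycolysis genes were called lower and none higher (median -0.50), with Pkm at -1.12. Among all genes 13.8% were called lower and 15.8% higher. Of the citric acid cycle list 6 were lower, with Cs at -0.50, and 7 of the mitochondrial mass list, while Esrra was 0.95 higher.

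Some nuclear subunits were called in opposite directions in the 2 tissues. Of 75 listed in both, 28 (37.3%) were called lower in Fcgr2b-/- kidneys and higher in Fcgr2b-/- macrophages than in WT, against 4.5% of the 9884 genes listed in both. By limma 4 (5.33%) were lower in both, against 10.4% of all genes, 0 were higher in both, against 10.4%, and 43 were not called in both tissues. For double mutant against Fcgr2b-/- 23 (30.7%) were higher in kidney and lower in macrophages, against 1.91% of all genes, and 1 (1.33%) was higher in both, against 2.98%. The macrophage calls behind these counts depend on the scaling, since 19 members rather than 38 were called higher in Fcgr2b-/- macrophages with nuclear totals set equal. Sdhd and Atp5e belonged to the 28, with log2 differences of -0.58 and -0.50 in kidney and of 0.66 and 0.76 in macrophages. Of 12 mitochondrial genes 2 were lower in both. The difference between tissues was not itself tested, because library protocols and tables differed.

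**Figure D5:**
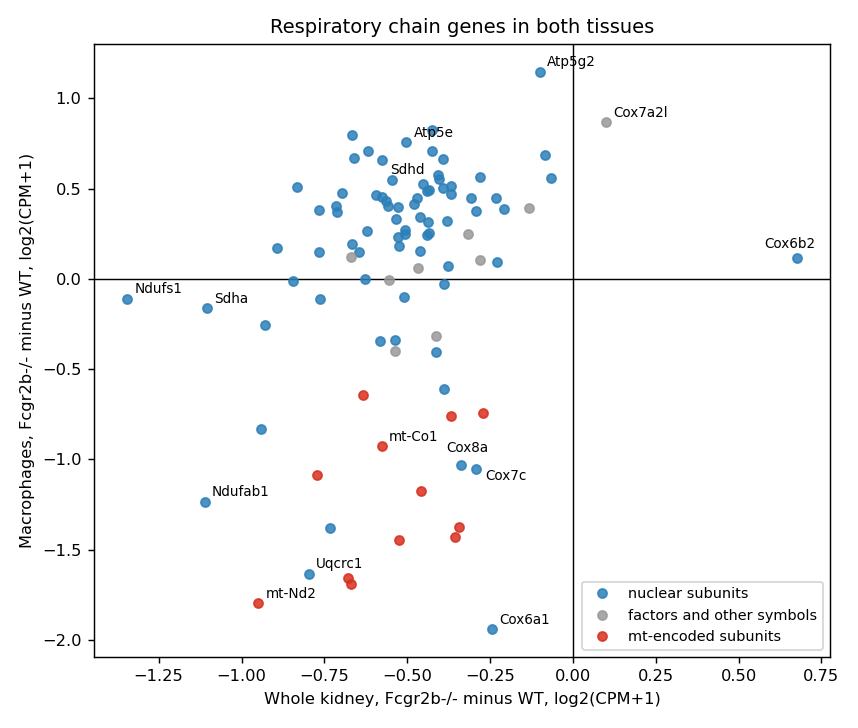
Log2 difference of Fcgr2b-/- minus WT in kidney (horizontal axis) against that in macrophages (vertical axis) for the members listed in both tissues, with nuclear subunits, mitochondrial genes and factors marked. Many nuclear subunits lie below 0 in kidney and above 0 in macrophages, and Cox6a1, Uqcrc1 and the mitochondrial genes lie below 0 on both axes.

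Promoters of nuclear subunits were read because so many of these genes moved together. Of the 76 nuclear subunits listed in kidney, 65 matched a RefSeq promoter (GRCm38.p6), taken as 250 bases before to 50 after the start. Both strands were searched for GCGC, A, any base and GCGC in a row (the site of NRF1, an activator of respiratory genes), CCGGAAG (ETS factors such as GABP), TNAAGGTCA (estrogen-related receptors) and AAGATGG followed by CGGC (YY1), and in no member did matches of different motifs overlap. A gene was counted if any of its promoters held the letters. The NRF1 letters were found in 17 members (26.15%). They were found in 11.16% of the 9288 kidney-listed genes with a matched promoter and 5.19% of all 27025 genes with a promoter. For ETS the share was 24.62% (16 members) against 19.43 and 9.93%. It was 4.62% (3 members) against 0.89 and 1.43% for estrogen-related receptors, and 6.15% (4 members) against 1.78 and 0.75% for YY1. Shares from 3 and 4 members rest on few genes. Members with and without the NRF1 letters had median Fcgr2b-/- minus WT differences of -0.47 and -0.50 in kidney and of 0.42 and 0.32 in macrophages. A match is a description of the letters and not a bound site.

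Shown are the promoters of Sdha (chr13:74350191-74350490, minus strand), which had one of the largest kidney differences, Sdhd (chr9:50603800-50604099, minus strand), which differed in opposite directions in the 2 tissues, and Cox6a1 (chr5:115348909-115349208, minus strand), the nuclear subunit with the lowest macrophage difference. Capitals mark the motif matches on either strand. Sdha holds 3 NRF1 matches, Sdhd 1 each of NRF1, ETS and estrogen-related receptor, and Cox6a1 2 of NRF1 and 1 of ETS.
Sdha: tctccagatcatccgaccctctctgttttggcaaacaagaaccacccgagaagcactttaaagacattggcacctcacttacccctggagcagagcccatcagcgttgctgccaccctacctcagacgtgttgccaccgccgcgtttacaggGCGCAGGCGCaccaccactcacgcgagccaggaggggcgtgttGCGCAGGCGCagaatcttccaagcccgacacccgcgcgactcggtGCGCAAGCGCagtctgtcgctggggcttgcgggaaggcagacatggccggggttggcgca
Sdhd: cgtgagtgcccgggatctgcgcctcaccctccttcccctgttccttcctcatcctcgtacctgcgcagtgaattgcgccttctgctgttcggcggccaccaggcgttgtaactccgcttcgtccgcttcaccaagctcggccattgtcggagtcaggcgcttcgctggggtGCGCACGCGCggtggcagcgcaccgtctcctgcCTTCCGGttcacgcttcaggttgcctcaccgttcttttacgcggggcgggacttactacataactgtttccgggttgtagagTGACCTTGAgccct
Cox6a1: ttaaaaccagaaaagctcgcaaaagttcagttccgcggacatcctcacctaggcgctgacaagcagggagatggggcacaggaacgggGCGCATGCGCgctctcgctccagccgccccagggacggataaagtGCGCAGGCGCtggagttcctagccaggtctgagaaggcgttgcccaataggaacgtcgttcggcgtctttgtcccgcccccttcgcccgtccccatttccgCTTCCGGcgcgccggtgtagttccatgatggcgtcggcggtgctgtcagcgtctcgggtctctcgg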

How the data were processed

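The deposited values are log2 CPM per gene, 1 table per tissue, and per the labels the libraries were polyA-enriched, with a standard kit for kidney and a low-input kit for macrophages. The submitters' processing notes name the builds mm10 and GRCm38. No source used here names the aligner, the annotation or the way reads were counted. At low values every antilog was a whole number of reads within 0.1 read. The authors also deposited a table of their own comparisons, holding log2 fold changes and p-values, which was used only where named.

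Values were turned back to CPM and log2(CPM + 1) was tested with limma 3.58.1 (R 4.3.3, eBayes with trend), all 4 genotypes of a tissue in 1 fit, with Benjamini-Hochberg adjustment over all listed genes. Every log2 difference is on that scale, which understates changes of genes with few reads. No filter was added. Summaries and figures used Python 3.11.15, pandas 2.3.3, scipy 1.17.1 and matplotlib 3.10.9. The procedure was tested on simulated data. No 2 libraries of a tissue held identical values.

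Double mutants were taken from the genotype label, since their titles give the Rhbdf2 knockout alone. Members, lists and named genes were chosen with earlier results of these data known. Named were, for each complex and comparison, the nuclear members with the smallest p or the largest change, those called against the direction of their complex, isoforms with a special role and all mitochondrial genes. Alternatives were limma-voom on recovered reads, 3 other scalings, a pseudocount of 0.5, a filter on mean log2 CPM of 1, fits of only the groups compared and leaving out libraries. The values of 1 member are not reported here, though it is kept in the counts.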

Additional observations from a re-analysis of the deposited data

Results flagged for a closer look

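In kidney, the effect of Fcgr2b loss differed with Rhbdf2 genotype for 16 members, by the limma interaction with an adjusted p below 0.05, against 13.9% of all genes called in this direction, a share near that background. The interaction, positive in all 16, included 1.16 for Ndufs1, 0.91 for Ndufab1, 0.87 for Sdha, 0.78 for Cox7a1, 0.72 for Uqcrc2, 0.66 for Atp5b, 0.64 for Atp5f1, 0.63 for Ndufaf6 and 0.62 for Uqcrfs1. It was 0.58 for Sdhb, 0.55 for Ndufa9, 0.52 for Atp5a1, 0.51 for Ndufaf5, 0.50 for Uqcrc1 and 0.42 for Sdhd.

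In macrophages it was negative for 5 of 96 members (5.21%), against 5.89% of all genes, and the number called was 0 to 10 when 1 library was left out. It stood at -0.87 for Ndufs6, -0.68 for Atp5e, -0.68 for Cox4i1, -0.65 for Sdhd and -0.49 for Ndufa2.

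Single libraries stood apart from the other 3 of their group in kidney, by the gap to the nearest library relative to the range of the group, which chance alone gives in about 1 of 20 groups. Among double mutants the highest library had a mitochondrial share of 14.3%, 15160 CPM of mt-Nd2, 13007 of mt-Nd4, 14372 of mt-Nd5, 32474 of mt-Cytb, 47282 of mt-Co1 and 7465 of mt-Atp8, and also 301 CPM of Ndufs1 and 494 of Atp5f1. Most of these values are of mitochondrial genes of 1 library, and they are not independent of each other.

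Among Rhbdf2-/- kidneys the highest library had 273 CPM of Ndufs1 and the lowest 18.6 CPM of Ndufaf6. Among WT kidneys the lowest library had 149.6 CPM of Ndufa2, 133 of Cox7a2l, 190.5 of Atp5e and 26.8 of Ndufaf1.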

How the results depend on the processing

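Of the alternatives for the comparisons as a whole, 339 left the value within the limits set for it and 64 moved it. For counts these limits compare totals and not directions. Leaving out 1 library at a time, the number of members called in kidney was 59 to 93 for Fcgr2b-/- against WT, 29 to 86 for double mutant against Fcgr2b-/-, 0 to 0 for Rhbdf2-/- against WT, 0 to 7 for double mutant against Rhbdf2-/-, 0 to 6 for double mutant against WT and 12 to 53 for the interaction. In macrophages it was 43 to 55, 19 to 52, 0 to 0, 3 to 26, 1 to 38 and 0 to 10 for the comparisons in that order. The mitochondrial minus nuclear difference in kidney was -0.21 to 0.07, -0.09 to 0.22, 0.07 to 0.14, -0.22 to -0.02 and -0.12 to 0.09, and in macrophages -1.64 to -1.21, 0.50 to 0.75, -0.18 to 0.24, -0.92 to -0.75 and -1.0 to -0.58.

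Fitting only the groups compared gave 17 kidney members for double mutant against Fcgr2b-/-, 3 against Rhbdf2-/- and 6 against WT, and 3 macrophage members for double mutant against WT. Those fits use fewer libraries. Setting nuclear totals equal gave 0 kidney members for double mutant against WT and 2 macrophage members for the interaction, limma-voom gave 0 and 3, setting the totals of all listed genes equal gave 2 for the macrophage interaction and median-of-ratios scaling 11. Without replicate 4 of both kidney groups lacking Fcgr2b the counts were 24, 18 and 38 for double mutant against Rhbdf2-/-, against WT and for the interaction. Without the 3 macrophage libraries richest in mitochondrial reads they were 33 for Fcgr2b-/- against WT and 0 for both double mutant against WT and the interaction, and the mitochondrial minus nuclear difference was -0.91 for Fcgr2b-/- against WT, 0.47 for Rhbdf2-/- against WT and -0.28 for double mutant against WT. With medians over genes it was 0.91 for double mutant against Fcgr2b-/-. The cause of these shifts was not tested. Taking all mt- symbols gave the same values, since no other mt- genes were listed. For single genes 3030 alternatives kept the call and 329 lost it.

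With the replicate block, Rhbdf2-/- against WT macrophages, the comparison whose labels share letters, had 0 members called. Libraries of the same letter had deviations correlated at 0.24 and -0.05, and those of different letters at 0.28 and -0.29. With so few libraries, and deviations taken from each group's own mean, these values cannot decide whether the letters pair them. Replicate 1 of WT and of Rhbdf2-/-, both of letter a, each led its group in 12 of 12 mitochondrial genes.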
